A study of Homo sapiens with 12 samples.

Results

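The genes described here are 9 classical targets of YAP and TAZ, chosen by name as genes known from the pathway and not by a threshold on measured values: CCN1 (also CYR61), CCN2 (also CTGF), ANKRD1, AXL, CRIM1, CCDC80, F3, GADD45B and NT5E. Each matched 1 of the 62702 gene rows of the deposited count table through its Ensembl identifier, and 9 of 9 passed the filter on low counts that left 12301 genes for testing. They were measured in 786-O, a human clear cell renal cell carcinoma (ccRCC) line without working VHL, in 12 libraries of 4 groups of 3. The groups were parental cells with no shRNA named in the labels, and lines with shRNAs against HIF2A (the product of EPAS1; shHIF2A), against cJUN, JUNB and JUND together (shJUNs), and against YAP and TAZ together (shYAPTAZ). Every group, the parental one included, had doxycycline for 72 hours, which switches the shRNAs on. The labels call the replicates technical, so p-values measure the spread between these libraries of 1 parental and 3 derived lines. Whether a line was 1 clone is not stated. A line carrying a control shRNA is not among the groups analysed here, so effects of a knockdown and other differences between the lines cannot be told apart.

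YAP and TAZ are transcriptional coactivators that the Hippo kinase cascade keeps out of the nucleus. In the nucleus they bind DNA through TEAD factors, often beside AP-1, and switch on genes of adhesion, matrix and growth. CCN1, CCN2 and ANKRD1 are the genes most often read as reporters of YAP and TAZ activity, and several of the others are also controlled by AP-1, hypoxia, growth factor or stress signals.

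Library totals ran from 2272459 to 4469956 counts, at which 3 counts equal 0.671 to 1.32 CPM (counts scaled to a library of standard size). Replicates differed by more than counting error, with chi-squared per degree of freedom between 4.91 and 20.2 over 12 pairs. Levels below are CPM scaled by the TMM method, given as mean ± SD over n = 3 libraries. YAP1, which encodes YAP, was 66.7, 58.2 and 71.2 CPM in parental replicates 1 to 3 against 21.8, 10.2 and 10.4 CPM in the shYAPTAZ line, a 4.78-fold fall (adjusted p = 1.2e-06). WWTR1, which encodes TAZ, was 239, 325 and 369 CPM in parental cells against 146, 143 and 169 CPM in the shYAPTAZ line, a 2.04-fold fall (adjusted p = 2.23e-05). WWTR1 was 1.62-fold higher in shHIF2A and 1.42-fold higher in shJUNs (adjusted p = 0.00181 and 0.0169, the latter ending without parental replicate 1, at 0.0846, or shJUNs replicates 1 or 2, at 0.07 and 0.0687). EPAS1 was 267, 194 and 148 CPM in parental replicates and 11.9, 17.5 and 18.6 CPM in those of shHIF2A, 12.7-fold lower, but it was also 5.47-fold lower in shJUNs (36.2 to 38.5 CPM) and 1.8-fold lower in shYAPTAZ (adjusted p = 6.38e-07, 1.78e-05 and 0.0361). The last of these calls ended without parental replicates 1 or 2 (0.173 and 0.068) or shYAPTAZ replicates 2 or 3 (0.101 and 0.0957). It also ended in a fit of only the 6 libraries compared (0.0842). JUND was 310.3 to 390.3 CPM in parental cells and 34.2 to 42.0 CPM with shJUNs, 9.2-fold lower, whereas JUN fell 1.79-fold and JUNB 1.7-fold there (adjusted p = 1.41e-11, 0.00215 and 0.034). The call for JUNB ended without parental replicates 2 or 3 or any shJUNs replicate (from 0.0619 to 0.2). JUND was also lower in shHIF2A, by 1.61-fold, and in shYAPTAZ, by 2.09-fold (adjusted p = 0.00311 and 2.71e-05). Each of 5 markers of a renal epithelial carcinoma line was detected in every group, with a summed level of 10123 to 17473 CPM per library. Most of that sum was VIM, at 14956 ± 1807 CPM in parental cells, and the markers did not move together. In shHIF2A VIM fell 1.58-fold while KRT18 rose 2.55-fold and KRT8 1.95-fold (adjusted p = 4.13e-06, 1.35e-05 and 0.000303). PAX8 and CDH2 did not pass there (0.542 and 0.757). KRT8 also rose in shJUNs and shYAPTAZ, and KRT18 in shJUNs. The sum of 9 blood, endothelial and neural markers was 1.7 to 2.79 CPM in parental libraries, 1.25 to 9.11 with shHIF2A, 10.5 to 12.3 with shJUNs and 13.3 to 36.3 with shYAPTAZ. Most of the sum in shYAPTAZ was SNAP25, a synaptic protein, at 23.5 ± 12.3 CPM beside 0.375 ± 0.649 in parental cells (adjusted p = 6.16e-05). In shJUNs most was RBFOX3, a neuronal RNA-binding protein, at 7.86 ± 0.872 CPM beside 0.957 ± 0.738 (0.0176, ending without parental replicates 2 or 3 or any shJUNs replicate, from 0.056 to 0.0792). SNAP25 also passed as higher in shHIF2A (0.0431), a call that ended without parental replicates 1 or 3, shHIF2A replicates 1 or 3, shYAPTAZ replicate 2 or any shJUNs replicate (from 0.0512 to 0.273). With limma-voom that call ended too (0.197). SNAP25 passed the filter on low counts only through shYAPTAZ, and RBFOX3 only through shJUNs, the lines where they were high. Being testable thus fixed the direction of those rises, and their p-values carry no weight for it. The part of these markers in the results was not tested, and PECAM1, CDH5 and CD3E had no count in any group. Since these are bulk libraries, fewer cells with a transcript and less of it per cell cannot be told apart.

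The 9 genes did not move as a block. In shYAPTAZ against parental cells ANKRD1, CCN1, GADD45B and AXL fell, NT5E, CCN2 and CCDC80 rose, and CRIM1 and F3 did not pass the test. That is 4 lower and 3 higher of 9, where 12.3% of all genes tested were called lower and 13% higher (25.3% in either direction). The median log2 change of the 9 was -0.58, beside 0.02 for all genes tested. In shHIF2A 3 fell (F3, GADD45B and AXL) and 3 rose (CCN2, CCDC80 and CRIM1), where the background was 8.8% lower and 9.84% higher (18.6% in either direction). In shJUNs GADD45B fell and CRIM1 rose, where 8.93% of genes were called lower and 10.3% higher (19.3% in either direction). GADD45B passed in each of the 3 comparisons, which share the parental libraries. All 9 differed somewhere among the 4 groups, as did 38.7% of genes tested (adjusted p from 1.99e-07 for CRIM1 to 0.0425 for CCN1, whose call ended in 11 of 20 alternatives). The libraries did not overlap with the parental ones in 5 of the 9 genes in shYAPTAZ, 6 in shHIF2A and 4 in shJUNs, beside 36.2%, 36.1% and 39.5% of all genes tested.

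**Figure D1:**
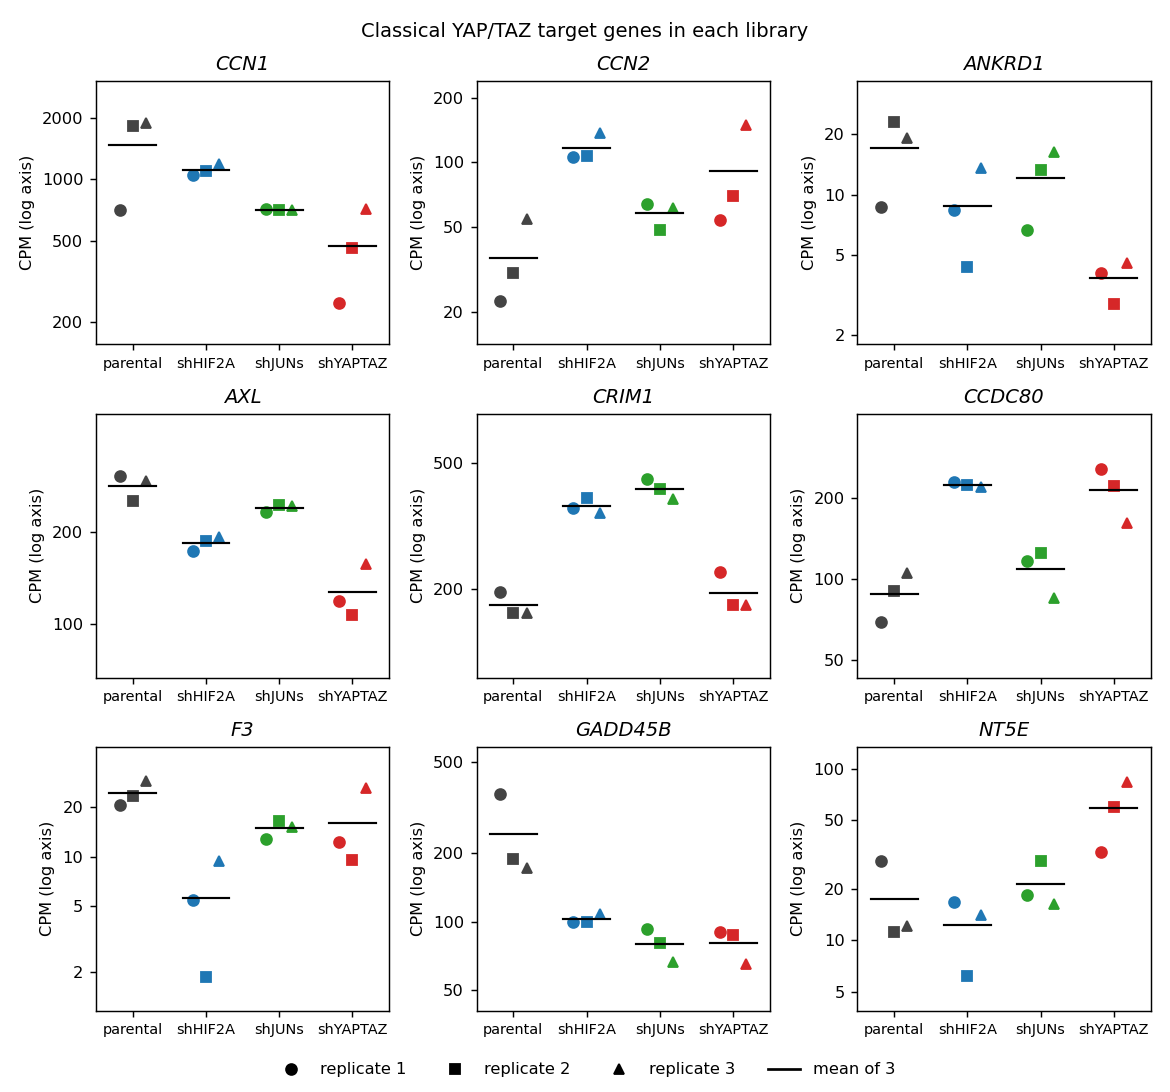
Level of each of the 9 genes in every library, in CPM on a log axis, by group, with 1 marker per library (circle, square and triangle for replicates 1, 2 and 3) and a line at the mean of 3. ANKRD1 and AXL lie lowest in shYAPTAZ, NT5E lies highest there, and for CCN1 parental replicate 1 lies at the level of the shJUNs libraries.

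The bases before the start of these genes show how differently their core promoters read. RefSeq sequences (GRCh38.p14) were found for 7 of the 9 genes, in 8 windows since AXL has a pair, and CCN1 and CRIM1 had no entry. In the 250 bases before each start 3 motifs were searched on both strands: GGAATG, the core of the TEAD site, TGANTCA, the AP-1 site, and ACGTG, the core of the HIF site. Promoters of CCN2, ANKRD1 and F3 are printed because CCN2 and ANKRD1 both hold several TEAD cores, yet differed in direction in shYAPTAZ, while F3 holds AP-1 sites only. Capitals mark GGAATG and TGANTCA, each sequence is read 5′ to 3′ on the strand of its gene (the minus strand for these 3), and different motifs did not overlap. The windows are chr6:131951373-131951622 for CCN2, chr10:90921088-90921337 for ANKRD1 and chr1:94541760-94542009 for F3.
CCN2: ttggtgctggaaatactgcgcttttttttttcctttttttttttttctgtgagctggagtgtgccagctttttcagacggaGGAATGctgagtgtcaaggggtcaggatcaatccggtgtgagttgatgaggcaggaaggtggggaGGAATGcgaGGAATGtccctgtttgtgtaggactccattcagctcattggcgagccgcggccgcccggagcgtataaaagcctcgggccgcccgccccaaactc
ANKRD1: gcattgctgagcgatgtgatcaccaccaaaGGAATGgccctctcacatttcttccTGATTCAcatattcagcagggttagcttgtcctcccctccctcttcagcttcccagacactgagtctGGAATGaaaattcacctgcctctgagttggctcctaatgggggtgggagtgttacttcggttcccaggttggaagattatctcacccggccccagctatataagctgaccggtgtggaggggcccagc
F3: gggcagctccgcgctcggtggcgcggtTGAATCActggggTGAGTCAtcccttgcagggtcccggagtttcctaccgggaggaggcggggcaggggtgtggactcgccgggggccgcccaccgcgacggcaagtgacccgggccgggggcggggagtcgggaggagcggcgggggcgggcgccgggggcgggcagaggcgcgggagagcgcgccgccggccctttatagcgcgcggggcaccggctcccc

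CCN2 held 3 copies of GGAATG, beginning 169, 104 and 95 bases before the start. ANKRD1 held 2, at 220 and 128 bases, and a TGANTCA match at 195 bases. At least 1 copy of GGAATG stood in 11.9% of the 35116 RefSeq promoter windows of this length, at least 2 in 0.94% and at least 3 in 0.083%. F3 held 2 copies of TGANTCA, at 223 and 210 bases, where 6.57% of windows held at least 1 and 0.402% at least 2. Of the other windows, 1 of the pair of AXL held 1 GGAATG and 2 ACGTG, all on the opposite strand. In GADD45B ACGTG matched on both strands at overlapping bases (18.5% of windows held at least 1). The windows of CCDC80 and NT5E and the other window of AXL held none of the 3. Windows precede RefSeq starts, which need not be the outer end of the gene as counted. Those of CCDC80 and NT5E, and the AXL window with matches, lie inside the gene spans given below. A match is a stretch of letters and not a measured binding site, and YAP/TAZ often acts from distal enhancers outside these windows.

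CCN1 and CCN2 encode secreted matricellular proteins of one family that bind integrins. CCN1 (ENSG00000142871, chr1:85580761-85584589, hg38, protein-coding) was 705, 1819 and 1893 CPM in parental replicates 1 to 3, 1053, 1101 and 1195 CPM in shHIF2A, 719, 706 and 706 CPM in shJUNs, and 249, 460.1 and 713 CPM in shYAPTAZ. Parental replicate 1 stood far below the other parental libraries and inside the range of shYAPTAZ, so those groups overlapped. The group means were 1472 ± 666, 1116 ± 72.2, 710.3 ± 7.84 and 474 ± 232 CPM in that order. CCN1 fell 3.1-fold in shYAPTAZ (log2 change -1.63 ± 0.42 SE, adjusted p = 0.0192). The call ended without parental replicates 2 or 3 or shYAPTAZ replicate 2 (adjusted p = 0.0596, 0.0586 and 0.0606) and with no filter on low counts (0.0531). With both parental replicate 1 and shYAPTAZ replicate 3 left out, a choice made after seeing the data, the fall was 5.26-fold (adjusted p = 2.52e-07). The former had the lowest CCN1 of its group and the latter the highest, so leaving them out was bound to enlarge the fall. Any CCN1 call gained by leaving out either, here or below, is therefore no support for a change. CCN1 did not pass in shJUNs (log2 change -1.05, 95% interval -1.98 to -0.12, adjusted p = 0.112) or in shHIF2A (-0.40, -1.32 to 0.52, 0.553). With those same 2 libraries left out it passed as lower in both (adjusted p = 1.86e-05 in shJUNs and 0.00497 in shHIF2A), and without parental replicate 1 alone in shJUNs (0.0287). No pair of knockdown lines differed for CCN1 by the test (adjusted p from 0.0715 to 0.41). For shYAPTAZ against shHIF2A it passed with DESeq2 (0.0242), limma-voom (0.00539), the replicate block (0.0358) and the fit of 6 libraries (0.0286), and without parental replicate 1 (0.0256) or shYAPTAZ replicate 3 (0.03). For shJUNs against shHIF2A it passed, as 1.57-fold lower, in the fit of 6 libraries (3.43e-06). With those 2 libraries left out all 3 pairs passed (adjusted p = 6.44e-06, 0.000664 and 0.00986).

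CCN2 (ENSG00000118523, chr6:131948176-131951372, hg38) went the other way. It was 22.7, 30.6 and 54.3 CPM in parental replicates 1 to 3, 106, 107 and 136 CPM in shHIF2A, 64.1, 48.6 and 61.2 CPM in shJUNs, and 53.6, 69.7 and 149 CPM in shYAPTAZ. Every shHIF2A library lay above every parental one, while the lowest shYAPTAZ library lay just under the highest parental one. CCN2 rose 3.22-fold in shHIF2A (log2 change 1.69 ± 0.34 SE, adjusted p = 0.00249) and 2.54-fold in shYAPTAZ (1.35 ± 0.34, 0.00769). The rise in shYAPTAZ was 1.45-fold and not called with parental replicate 1 and shYAPTAZ replicate 3 left out (adjusted p = 0.148). The former had the lowest CCN2 of its group and the latter the highest, so leaving them out was bound to shrink the rise. In shJUNs the log2 change was 0.69 (95% interval -0.03 to 1.40, adjusted p = 0.177), and CCN2 passed there without parental replicate 3 (0.0309) or shYAPTAZ replicate 3 (0.044), with no filter (0.0189) and with the replicate block (0.0122). The mean levels ran from 35.9 ± 16.4 CPM in parental cells through 58.0 ± 8.25 in shJUNs and 90.8 ± 51.2 in shYAPTAZ to 116 ± 17.3 in shHIF2A, and none of these neighbours differed by the test. Without shYAPTAZ replicate 3 shYAPTAZ was lower than shHIF2A (adjusted p = 0.0184), and without shYAPTAZ replicate 1 or with no filter it was higher than shJUNs (0.048 and 0.0262). Those replicates had the highest and the lowest CCN2 of shYAPTAZ, and parental replicate 3 had the highest of its group. The CCN2 calls gained by leaving them out are therefore no support for a change. An antisense gene, LINC01013, overlaps CCN2 but had 27 counts over the 12 libraries beside 3164 for CCN2.

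A ratio within a library does not depend on how libraries are scaled, and was taken after the levels had been seen. Parental replicates 1 to 3 had 31.1, 59.3 and 34.9 CCN1 counts per CCN2 count, against 4.65, 6.6 and 4.78 for the shYAPTAZ replicates. The shJUNs replicates had 11.2, 14.5 and 11.5, and the shHIF2A replicates 9.95, 10.3 and 8.77. All parental libraries lay above all knockdown libraries, and the shYAPTAZ libraries lay below all others. The ratio was 41.8 ± 15.3 in parental cells and 5.34 ± 1.09 in shYAPTAZ, with shHIF2A (9.67 ± 0.799) and shJUNs (12.4 ± 1.82) between. This holds also for parental replicate 1, with the lowest CCN1 level of its group, and shYAPTAZ replicate 3, with the highest of its group. Those libraries were also the lowest and the highest of their groups in CCN2, a shift that a ratio cancels. CCN1 had already been seen to fall and CCN2 to rise in shYAPTAZ, so the separation is no further support for either change.

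**Figure D2:**
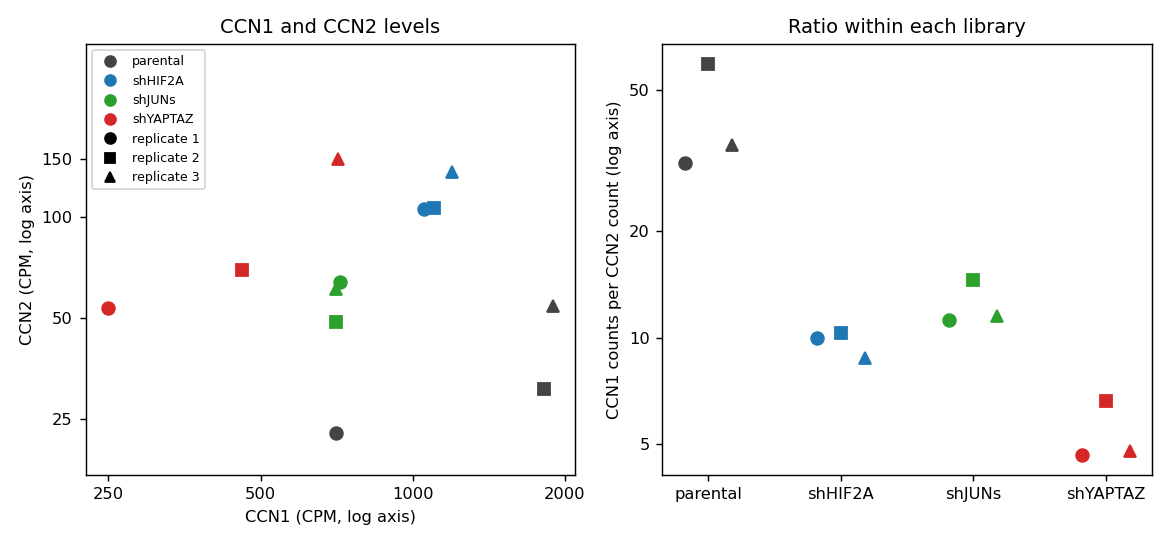
Left, CCN2 against CCN1 in each of the 12 libraries, both in CPM on log axes, with colours for the groups and marker shapes for the replicates. Right, CCN1 counts per CCN2 count in each library on a log axis, where the parental libraries hold 31.1 to 59.3 and the shYAPTAZ libraries 4.65 to 6.6.

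CCDC80 encodes a secreted protein of the extracellular matrix. CCDC80 (ENSG00000091986, chr3:112596797-112649530, hg38) was 69.1, 90.0 and 105 CPM in parental replicates 1 to 3, 230, 222 and 219 CPM in shHIF2A, 116, 125 and 85.1 CPM in shJUNs, and 255, 222 and 161 CPM in shYAPTAZ. The shHIF2A and shYAPTAZ libraries all lay above the parental and shJUNs ones. CCDC80 rose 2.54-fold in shHIF2A and 2.41-fold in shYAPTAZ (adjusted p = 3.64e-05 and 3.6e-05), and those 2 lines differed by a log2 change of -0.08 (95% interval -0.46 to 0.31, adjusted p = 0.828). In shJUNs it did not pass (log2 change 0.30, -0.09 to 0.69, adjusted p = 0.291), and shJUNs lay below both shHIF2A (2.06-fold, adjusted p = 0.00105) and shYAPTAZ (1.95-fold, 0.000995).

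CRIM1 encodes a transmembrane protein with cysteine-rich repeats that binds bone morphogenetic proteins. CRIM1 (ENSG00000150938, chr2:36355778-36551135, hg38) was 196, 168 and 168 CPM in parental replicates 1 to 3, 361, 387 and 348 CPM in shHIF2A, 446, 413 and 384 CPM in shJUNs, and 226, 178 and 178 CPM in shYAPTAZ. The shHIF2A and shJUNs libraries overlapped with each other and lay wholly above the parental and shYAPTAZ ones. CRIM1 rose 2.06-fold in shHIF2A and 2.34-fold in shJUNs (adjusted p = 1.36e-05 and 1.4e-06). In shYAPTAZ its log2 change was 0.13 (95% interval -0.16 to 0.41, adjusted p = 0.541), an interval that lies below the log2 changes of 1.05 and 1.23 in the other lines. The direct tests gave shYAPTAZ 1.89-fold below shHIF2A and 2.14-fold below shJUNs (adjusted p = 5.2e-05 and 6.78e-06). FEZ2, on the opposite strand, overlaps CRIM1 and had 4578 counts beside 12295 for CRIM1, and whether counting used strand is not stated, so reads of the pair may not have been separated.

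AXL encodes a receptor tyrosine kinase whose ligand is GAS6. AXL (ENSG00000167601, chr19:41219223-41261766, hg38) was 305, 254 and 295 CPM in parental replicates 1 to 3, 174, 187 and 193 CPM in shHIF2A, 233, 245 and 245 CPM in shJUNs, and 119, 107 and 157 CPM in shYAPTAZ. No groups overlapped in AXL in any of the 6 pairs. Its means were 285 ± 26.9, 241 ± 6.70, 185 ± 9.77 and 128 ± 26.1 CPM in parental, shJUNs, shHIF2A and shYAPTAZ. AXL fell 2.22-fold in shYAPTAZ and 1.54-fold in shHIF2A (adjusted p = 7.52e-06 and 0.00559). In shJUNs it did not pass (log2 change -0.24, 95% interval -0.55 to 0.07, adjusted p = 0.285). The shYAPTAZ level lay 1.44-fold below shHIF2A (adjusted p = 0.0172), a call that ended without shHIF2A replicates 2 or 3 (0.0625 and 0.0551) or shYAPTAZ replicate 2 (0.118) and in a fit of those 6 libraries (0.0668). It lay 1.88-fold below shJUNs (adjusted p = 0.000202), and shJUNs and shHIF2A did not differ by the test (0.133). In the fit of those 6 libraries AXL passed as higher in shJUNs than in shHIF2A (adjusted p = 0.0198), as it did with parental replicate 1 and shYAPTAZ replicate 3 left out (0.0314).

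F3 encodes tissue factor, the membrane protein that starts blood clotting by binding factor VII. F3 (ENSG00000117525, chr1:94529173-94541759, hg38), whose promoter letters are printed above, was 20.6, 23.3 and 28.8 CPM in parental replicates 1 to 3, 5.51, 1.87 and 9.46 CPM in shHIF2A, 12.9, 16.6 and 15.2 CPM in shJUNs, and 12.3, 9.55 and 26.0 CPM in shYAPTAZ. The shHIF2A libraries were the lowest and overlapped no other group, while shYAPTAZ replicate 3 reached the parental range. F3 fell 4.35-fold in shHIF2A (log2 change -2.12 ± 0.45 SE, adjusted p = 0.00225). It did not pass in shYAPTAZ (log2 change -0.58, 95% interval -1.45 to 0.28, adjusted p = 0.333) or shJUNs (-0.71, -1.56 to 0.15, 0.252), where a fall of more than 2-fold lies within the interval. F3 was 2.9-fold higher in shYAPTAZ than in shHIF2A (adjusted p = 0.0213), a call that ended without shYAPTAZ replicate 3 (0.174) or shHIF2A replicates 1 or 2 (0.0619 and 0.112), and in a fit of 6 libraries (0.0911). These rest on 52 counts in shHIF2A and 244 in parental cells.

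NT5E encodes CD73, the ectoenzyme that turns extracellular AMP into adenosine. NT5E (ENSG00000135318, chr6:85449584-85495791, hg38) was 28.97, 11.2 and 12.2 CPM in parental replicates 1 to 3, 16.8, 6.24 and 14.0 CPM in shHIF2A, 18.4, 28.8 and 16.3 CPM in shJUNs, and 32.7, 60.2 and 83.6 CPM in shYAPTAZ. All shYAPTAZ libraries lay above all others, and the other 3 groups overlapped. NT5E rose 3.43-fold in shYAPTAZ (log2 change 1.78 ± 0.41 SE, adjusted p = 0.00289). It was there 4.79-fold above shHIF2A (adjusted p = 0.000722) and 2.81-fold above shJUNs (0.0131), the latter ending without shJUNs replicates 1 or 3 (0.0654 and 0.072) or shYAPTAZ replicate 3 (0.0567). It passed neither in shHIF2A (log2 change -0.48, 95% interval -1.37 to 0.42, adjusted p = 0.475) nor in shJUNs (0.29, -0.56 to 1.14, 0.684).

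ANKRD1 encodes a nuclear ankyrin repeat protein that is best known from stressed heart and skeletal muscle. ANKRD1 (ENSG00000148677, chr10:90912096-90921087, hg38) was 8.73, 23.1 and 19.2 CPM in parental replicates 1 to 3, 8.41, 4.37 and 13.7 CPM in shHIF2A, 6.66, 13.4 and 16.3 CPM in shJUNs, and 4.09, 2.87 and 4.58 CPM in shYAPTAZ. The shYAPTAZ libraries lay below all parental and shJUNs libraries and overlapped only those of shHIF2A. ANKRD1, whose window is printed above, had the largest fall of the 9 genes in shYAPTAZ, 4.39-fold (log2 change -2.14 ± 0.51 SE, adjusted p = 0.00340), from 175 counts over the parental libraries to 37. It did not pass in shHIF2A (log2 change -0.96, 95% interval -1.94 to 0.02, adjusted p = 0.162) or shJUNs (-0.50, -1.44 to 0.45, 0.497). The level in shYAPTAZ was 3.11-fold below shJUNs (adjusted p = 0.0292), a call that ended with limma-voom (0.1), without shJUNs replicates 2 or 3 (0.0814 and 0.139) and without shYAPTAZ replicates 1 or 2 (0.0524 and 0.116). Against shHIF2A the difference did not pass (log2 change -1.18, -2.25 to -0.10, adjusted p = 0.123).

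GADD45B encodes a small stress-induced protein that acts on MAP kinase signalling and growth arrest. GADD45B (ENSG00000099860, chr19:2476122-2478259, hg38) was 365, 189 and 172 CPM in parental replicates 1 to 3, 99.4, 99.2 and 108 CPM in shHIF2A, 93.0, 80.4 and 66.4 CPM in shJUNs, and 89.9, 86.9 and 65.1 CPM in shYAPTAZ. Every knockdown library lay below every parental one, though parental replicate 1 stood well above the other parental libraries. GADD45B fell 2.36-fold in shHIF2A, 3.02-fold in shJUNs and 3.01-fold in shYAPTAZ (adjusted p = 0.000623, 3.97e-05 and 2.92e-05). The knockdown lines did not differ among themselves by the test (adjusted p from 0.328 to 0.99), and for shYAPTAZ against shJUNs the log2 change was 0.01 (95% interval -0.47 to 0.49).

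**Figure D3:**
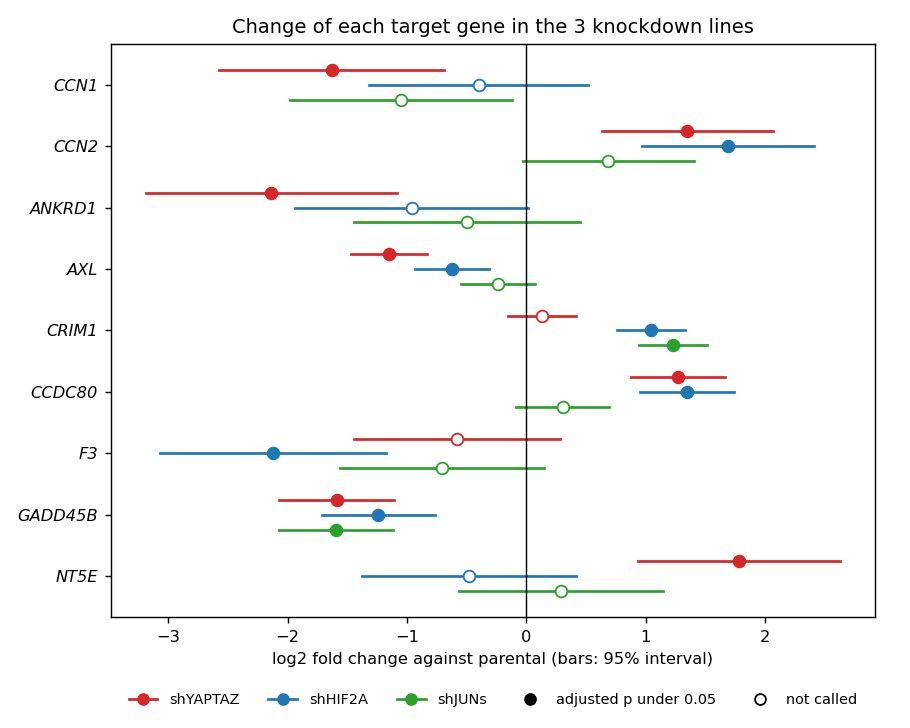
Log2 fold change of each gene against parental cells in shYAPTAZ (red), shHIF2A (blue) and shJUNs (green), with bars for the 95% interval and filled points for an adjusted p under 0.05. GADD45B is filled on the lower side in all 3 lines, while CCN2 and CCDC80 lie on the higher side in shYAPTAZ and shHIF2A.

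Setting the knockdown lines directly against each other, 2 genes were lower (CRIM1 and AXL) and 2 higher (NT5E and F3) in shYAPTAZ than in shHIF2A, where 8.72% of genes were called lower and 9.71% higher (18.4% in either direction). Against shJUNs 3 were lower in shYAPTAZ (CRIM1, AXL and ANKRD1) and 2 higher (CCDC80 and NT5E), where 8.27% and 7.87% of genes were called (16.1% in either direction). Between shJUNs and shHIF2A the 1 call was CCDC80, lower in shJUNs, where 3.17% of genes were called lower and 4.36% higher (7.53% in either direction). Libraries did not overlap in 6 of the 9 genes for shYAPTAZ against shHIF2A, 5 against shJUNs and 6 for shJUNs against shHIF2A, beside 32.2%, 33.3% and 31.2% of all genes. For this last pair the number of calls depended on the fit. F3, 2.67-fold higher in shJUNs (adjusted p = 0.0597), passed with no filter (0.0178), DESeq2 (0.0276), the replicate block (0.0139) and the fit of 6 libraries (0.0422). It also passed without shHIF2A replicate 3 (0.0226) or shYAPTAZ replicates 1 or 3 (0.0462 and 0.0323). The shHIF2A replicate 3 had the highest F3 of its group, so leaving it out was bound to enlarge the difference. CCN1 and AXL passed in the fit of 6 libraries, as given above. CCN2 passed as lower in a fit of those 6 libraries (adjusted p = 0.000223), with DESeq2 (0.0257), limma-voom (0.0282), no filter (0.000232) and the replicate block (0.0026), and without parental replicate 3 (0.0372) or shYAPTAZ replicates 1 or 3 (0.0274 and 0.00676).

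Libraries of one group differed in several of these genes together. Within shYAPTAZ, replicate 3 was the highest in 6 of the 9 genes, CCN1, CCN2, ANKRD1, AXL, F3 and NT5E, and the lowest in CCDC80 and GADD45B. The same library did not have the most YAP1 (10.4 CPM, beside 21.8 in replicate 1) but had the most WWTR1 (169 CPM, beside 143 and 146). Among parental libraries replicate 1 was the lowest in 5 genes, CCN1, CCN2, ANKRD1, CCDC80 and F3, and the highest in the other 4. Its WWTR1, at 239 CPM, and its JUNB, at 97.0 CPM beside 213 and 266, were the lowest of the parental group. What part these differences had in the results above was not tested beyond leaving the libraries out.

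Across the 12 libraries the log2 levels of the 9 genes were loosely related. The closest pair was ANKRD1 and AXL (Pearson r = 0.786), the most opposed AXL and CCDC80 (-0.838), and CCN1 and CCN2 had an r of 0.0243. Among 8581 other genes of at least 10 CPM, those nearest in pattern were SNX33 for GADD45B (r = 0.979), RHEB for AXL (0.97), PSMB1 for CCN2 (0.968), KCTD10 for CRIM1 (0.961) and NDUFA3 for CCDC80 (0.961). For the other members they were PEA15 for CCN1 (0.949), SNW1 for NT5E (0.922), RECQL4 for F3 (0.919) and ADCY3 for ANKRD1 (0.895). The second nearest were METRNL, MTHFD1L, ZNF207, MAL2, YIPF5, LYPLA1, IRX5, LRRFIP1 and COASY, in the same order of members. KCTD10, for example, was 24.1 ± 1.80 CPM in parental cells, 44.6 ± 3.02 in shHIF2A, 52.7 ± 5.03 in shJUNs and 24.996 ± 1.04 in shYAPTAZ, higher like CRIM1 in shHIF2A and shJUNs. The points share their groups, their libraries and the search over many genes, so these are descriptions of likeness only.

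A further 23 YAP/TAZ targets outside the 9 were taken from general knowledge of the pathway, and 22 of them could be tested. Like the 9 genes and the other lists, these were chosen with earlier results of these data known, and so not blindly. In shYAPTAZ 11 fell, 3 rose (TGM2, RBMS3 and THBS1) and 8 did not pass (median log2 change -0.91, beside 0.02 for all genes tested). In shHIF2A 8 fell and 2 rose (median -0.30, beside 0.005), and in shJUNs 9 fell and 3 rose (-0.31, beside -0.001). With parental replicate 1 and shYAPTAZ replicate 3 left out, 11 fell and 3 rose in shYAPTAZ, while 10 fell and 1 rose with shHIF2A and 9 fell and 3 rose with shJUNs. Leaving out parental replicate 1, or parental replicate 2, left 1 called higher in shYAPTAZ. The rise of THBS1 (1.72-fold, adjusted p = 0.0382) did not pass without shYAPTAZ replicate 3 (1.3-fold, 0.217), any parental replicate (0.0526 to 0.185) or any shJUNs replicate (0.0502 to 0.0531). With both parental replicate 1 and shYAPTAZ replicate 3 left out THBS1 was lost (1.15-fold, 0.527) and MYOF gained (0.0196), so the 3 rises were not the same genes. That of RBMS3 (1.73-fold, 0.0168) did not pass without parental replicates 1 or 2 or shYAPTAZ replicate 2 (0.0715, 0.0586 and 0.0517). These counts are read against all genes tested, of which 12.3% fell and 13% rose in shYAPTAZ. The shares were 8.8% and 9.84% in shHIF2A, and 8.93% and 10.3% in shJUNs.

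AMOTL2, an angiomotin that restrains YAP and is itself a target, went from 279 ± 36.5 CPM in parental cells to 57.1 ± 11.4 in shYAPTAZ, 117 ± 29.2 in shHIF2A and 108 ± 13.3 in shJUNs. It fell 4.91-fold, 2.37-fold and 2.58-fold (adjusted p = 1.67e-08, 7.46e-05 and 1.98e-05). LATS2, a Hippo kinase that phosphorylates YAP, fell 4.49-fold in shYAPTAZ, 1.86-fold in shHIF2A and 2.32-fold in shJUNs (adjusted p = 9.86e-07, 0.00868 and 0.000723). Without parental replicate 1 LATS2 did not pass in shHIF2A (adjusted p = 0.0671). IGFBP3, a secreted binding protein of insulin-like growth factors, fell 4.03-fold in shYAPTAZ, 3.38-fold in shHIF2A and 2.29-fold in shJUNs (adjusted p = 1.21e-06, 1.02e-05 and 0.000347). WWC1, the scaffold KIBRA of the Hippo pathway, fell 2.96-fold in shYAPTAZ (adjusted p = 6.62e-06), and its adjusted p was 0.867 in shHIF2A and 0.811 in shJUNs. EDN1, the vasoconstrictor endothelin 1, fell 3.91-fold in shHIF2A, 4.03-fold in shJUNs and 2.42-fold in shYAPTAZ (adjusted p = 6.65e-05, 3.97e-05 and 0.00166). AJUBA, a LIM protein that restrains LATS kinases, fell 1.94-fold in shHIF2A (adjusted p = 6.11e-05). CAV1, the caveolar coat protein, fell 1.41-fold in shHIF2A and rose 1.6-fold in shJUNs (adjusted p = 0.00183 and 7.88e-05). TGM2, a transglutaminase, had the smallest p of this list in shYAPTAZ against either other knockdown line. It rose 2.36-fold in shYAPTAZ and fell 1.65-fold in shHIF2A (adjusted p = 1.26e-05 and 0.00542). In shJUNs it also passed as lower (1.44-fold, 0.0348). That last call ended without any parental replicate (0.0521 to 0.0995) or shJUNs replicates 1 or 2 (0.158 and 0.128).

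**Figure D4:**
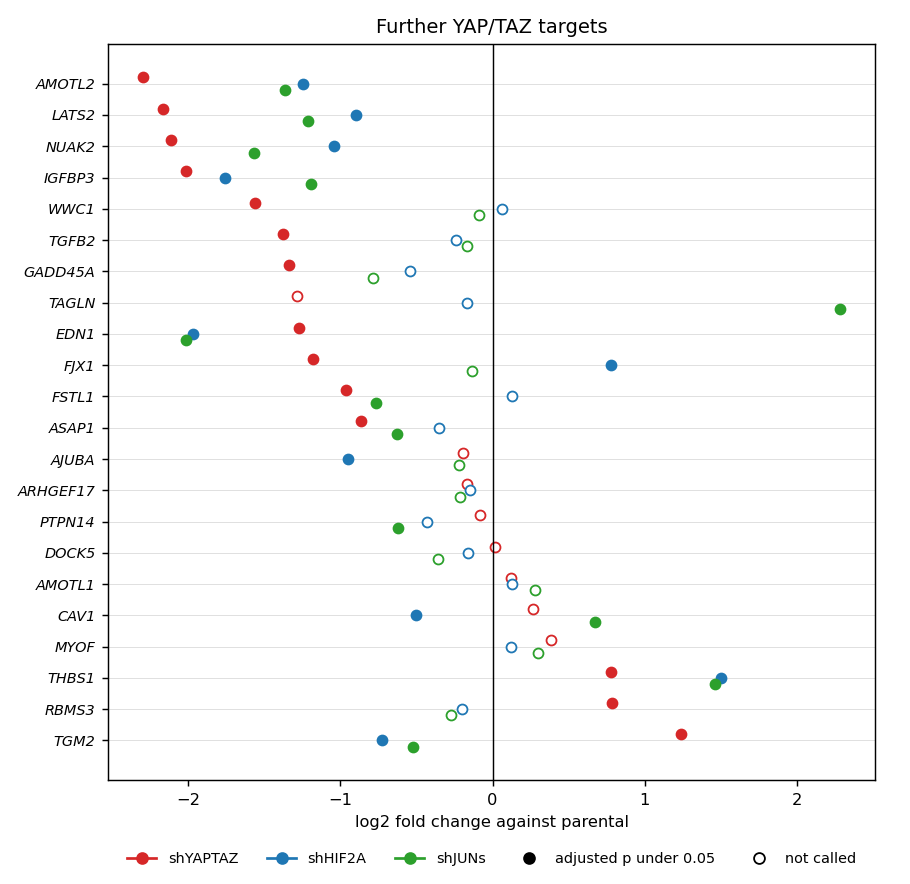
Log2 fold change against parental cells of 22 further YAP/TAZ targets in shYAPTAZ (red), shHIF2A (blue) and shJUNs (green), ordered by the change in shYAPTAZ, with filled points for an adjusted p under 0.05. The red points run from -2.30 for AMOTL2 to 1.24 for TGM2, and 11 are filled on the lower side and 3 on the higher.

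Of 8 genes of YAP, TAZ, TEAD and VGLL factors 6 could be tested. YAP1 and WWTR1, the shRNA targets themselves, fell in shYAPTAZ, as given above. TEAD1, the TEAD with the most counts, also fell there, by 1.81-fold from 95.6 ± 17.8 to 53.143 ± 11.045 CPM (adjusted p = 0.00296). Of all genes tested 12.3% were called lower in shYAPTAZ. In shHIF2A WWTR1 and VGLL4 rose, and in shJUNs WWTR1. The rise of VGLL4 did not pass without shHIF2A replicate 1 (adjusted p = 0.0551). TEAD1 passed in neither of those lines (adjusted p = 0.164 and 0.073), though it did in shJUNs without parental replicate 1 (0.0495) or shYAPTAZ replicate 3 (0.0476). It also passed in shJUNs with the replicate block (0.0447) and in the fit of 6 libraries (0.0397).

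Of 25 partners and relatives of the 9 genes, 14 could be tested, and 4 rose and 2 fell in shYAPTAZ, 3 rose and 1 fell in shHIF2A, and 3 rose and 1 fell in shJUNs. Of all genes tested 13% rose and 12.3% fell in shYAPTAZ, 9.84% and 8.8% in shHIF2A, and 10.3% and 8.93% in shJUNs. The 4 rises in shYAPTAZ include ENTPD3 and BMP4, described below, with at most 4 counts in any other group. They passed the filter on low counts only through shYAPTAZ, where they were high. Being testable thus fixed their direction, and these 4 rises cannot be read against the 13%. CHRDL1, also described below, had 6 counts over the parental libraries and passed the filter only through knockdown lines. It is among the rises of all 3 lines, so those in shHIF2A and shJUNs cannot be read against 9.84% and 10.3% either. Among the other CCN genes, CCN6 had no count in any library, CCN4 had 5 or fewer counts in every group and CCN5 10 or fewer. CCN3 was 2.09 ± 1.45 CPM in parental cells and 9.89 ± 6.90 in shHIF2A (adjusted p = 0.0691). GAS6, the ligand of AXL, fell from 93.2 ± 15.6 CPM to 45.6 ± 7.73 in shHIF2A, 2.04-fold (adjusted p = 0.00195), with no overlap. It also passed in shYAPTAZ (1.6-fold, adjusted p = 0.0225) and shJUNs (1.53-fold, 0.0432), but not firmly. The former ended without parental replicates 1 or 2 or shYAPTAZ replicate 1 (0.099, 0.0571 and 0.0985), and in the fit of 6 libraries (0.0628). The latter ended without parental replicates 1 or 2, any shJUNs replicate or shYAPTAZ replicate 2 (from 0.0523 to 0.171). The related receptor TYRO3 did not pass in any of the 3 lines (adjusted p from 0.0764 to 0.314). TFPI2, a protease inhibitor related to the inhibitor of tissue factor, rose from 128 ± 28.7 CPM to 232 ± 45.5 in shHIF2A, 571 ± 69.1 in shJUNs and 469 ± 99.3 in shYAPTAZ (adjusted p = 0.00262, 5.53e-08 and 2.1e-07). TFPI itself rose 1.44-fold in shJUNs (adjusted p = 0.0226), a call that ended without parental replicates 1 or 2 (0.0712 and 0.056) or shJUNs replicates 1 or 2 (0.0798 and 0.0859).

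Upstream of CD73, ENTPD3, an ectoenzyme that breaks down extracellular ATP, had 1 count over the parental libraries and 366 over shYAPTAZ, a ratio of 384 (95% Clopper-Pearson interval 68.5 to 15207, counting error only). It had no count in shHIF2A and 1 in shJUNs. ENTPD1, the better known enzyme of that step, was below the filter. ADORA1, an adenosine receptor, rose 1.84-fold in shHIF2A (adjusted p = 0.0371), a call that ended without parental replicates 1 or 2, shHIF2A replicates 1 or 2 or shJUNs replicate 1 (from 0.053 to 0.171). It ended in the fit of 6 libraries too (0.0529). Among the ligands and antagonists of bone morphogenetic protein signalling, to which CRIM1 belongs, BMP4 had 2 parental counts and 69 in shYAPTAZ, a ratio of 36.2 (9.65 to 305). CHRDL1, another such antagonist, was 0.585 ± 0.468 CPM in parental cells, 3.37 ± 0.608 in shHIF2A, 45.5 ± 4.16 in shJUNs and 96.3 ± 26.6 in shYAPTAZ, higher in all 3 lines (adjusted p = 0.00339, 7.1e-10 and 1.2e-11). In shHIF2A that call ended with limma-voom (0.131). Since CHRDL1 passed the filter only through knockdown lines, a fall from the parental level could not have been called.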

How the data were processed

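The libraries were made by BRB-seq, which barcodes the 3′ ends of transcripts, per the labels' protocols. The deposited values are unnormalized counts for each gene, and Trim Galore, STAR and hg38 are named in the submitters' processing notes. For the counting program, its use of strand, the annotation release, tool versions and molecular identifiers, the sources used here give nothing. Of 62705 lines after the header, 3 held the broken values of 1 gene, which was left out. A table of gene identifiers named 62624 of the 62702 genes.

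Counts were fitted with edgeR 4.0.16 in R 4.3.3: filterByExpr by group, TMM scaling, and a quasi-likelihood model (robust) in which each of the 4 groups has its mean, over 12 libraries. The calling threshold was 0.05 after Benjamini-Hochberg adjustment over 12301 genes. Standard errors are the log2 change over the square root of F, and intervals use the degrees of freedom of the test. Log2 levels for correlations used a prior count of 2. The scripts were tested on simulated data. Alternatives were DESeq2 size factors, upper quartile scaling, 2 other filters, DESeq2 1.42.0, limma-voom (limma 3.58.1), a fit of the 6 libraries compared, a replicate block and leaving out each library.

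The members and gene lists were chosen with earlier results of these data known, and 1 gene of the list of further targets is not reported here. All 9 members were described. Other genes were named by rule: the 2 nearest in pattern per member and up to 4 called genes with the smallest p per list and comparison, partners of at least 1 CPM, and the shRNA targets. Any other gene was named after its values were seen.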

Additional observations from a re-analysis of the deposited data

How the results depend on the processing

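Among 1314 recomputed values of the 9 genes, the test among the 4 groups included, no change called in either fit reversed. Of these, 1238 kept their side of the threshold, 35 lost the call and 41 gained one. The 1238 include the test among the 4 groups, which has no direction, and changes of sign where neither fit made a call. For example, NT5E in shHIF2A went from a log2 change of -0.48 to 0.07 with parental replicate 1 and shYAPTAZ replicate 3 left out. In shYAPTAZ against parental cells, leaving out each library in turn gave 3 to 4 genes lower and 3 higher, and in shHIF2A 3 and 3. In shJUNs it gave 1 to 2 lower and 1 to 2 higher. Of the further targets 10 to 12 were lower and 1 to 4 higher in shYAPTAZ, 7 to 11 and 1 to 2 in shHIF2A, and 7 to 10 and 3 in shJUNs. Between lines the ranges were 1 to 4 lower and 1 to 2 higher for shYAPTAZ against shHIF2A, 2 to 3 and 1 to 3 against shJUNs, and 1 to 2 and 0 to 1 for shJUNs against shHIF2A. Among the 4 groups 7 to 9 genes were called. Without shYAPTAZ replicate 3 alone 4 genes were lower in shYAPTAZ than in shHIF2A. For the further targets in shHIF2A 1 was higher without parental replicates 1 or 2 or any shHIF2A or shJUNs replicate.

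In shJUNs against parental cells 2 genes were higher with no filter or the replicate block, and 2 lower with limma-voom or without parental replicate 1 and shYAPTAZ replicate 3 together, a setting chosen after seeing the data. In shYAPTAZ against shHIF2A 1 gene was higher in the fit of 6 libraries, and 4 were lower and 1 higher with those 2 libraries left out. In shJUNs against shHIF2A 2 were lower and 1 higher with no filter, with DESeq2 or with the replicate block, 2 lower with limma-voom, and 3 lower and 2 higher in the fit of 6 libraries or with those 2 libraries left out. For the further targets in shHIF2A 1 was higher with DESeq2 size factors or with those 2 libraries left out. The cause was not tested.

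The labels do not say that the replicate numbers pair the libraries. Libraries with the same number correlated by -0.01 to 0.22 in their deviations from the group means, above 0.1 in at most 2 of 3 pairs of a comparison, so the block was not used for the reported values. As a hint from the data, the library of the other group that correlated best had the same number in 14 of 18 cases. With the block 3508 genes were called in shYAPTAZ against parental cells, beside 3113 without it. Of the 9 genes 4 were then lower and 3 higher in shYAPTAZ, 3 and 3 in shHIF2A and 1 and 2 in shJUNs against parental cells. Between lines 3 were lower and 2 higher for shYAPTAZ against shHIF2A, 3 and 2 against shJUNs, and 2 and 1 for shJUNs against shHIF2A.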
